A study of Mus musculus with 2 samples.

Results

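The Zbtb genes encode transcription factors that carry a BTB domain and zinc fingers, and their occupancy was read from a Myc-Tag ChIP-seq of Lck-Dlx5 T-cell lymphoma. Chromatin immunoprecipitation followed by sequencing (ChIP-seq) places the DNA fragments bound by a protein on the genome. The genes were chosen by name, as autosomal protein-coding RefSeq genes whose symbol begins with Zbtb and a number, together with Bcl6 and Patz1. This gave 42 of 20665 autosomal protein-coding genes. One of the 42, Zbtb8os, is named for its place on the strand opposite a Zbtb8 gene and encodes archease, a factor of tRNA ligation without zinc fingers. Protein sequences were not used here, so the domains of the other genes were not examined.

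The BTB domain lets these proteins pair with each other and recruit corepressors such as NCoR and BCOR or the ubiquitin ligase scaffold Cul3, while the zinc fingers read the DNA sequence. Several of them set the fate of lymphocytes. Zbtb7b (ThPOK) commits thymocytes to the CD4 lineage, Patz1 (MAZR) acts on Cd8 and represses Zbtb7b, Zbtb16 (PLZF) directs natural killer T cells, Zbtb1 is needed for T-lymphoid development, and Bcl6 is known for germinal center B cells and follicular helper T cells.

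The data hold 1 Myc-Tag ChIP library and 1 input library, each without replicates. Both samples carry the Lck-Dlx5 transgene, in which the Lck promoter drives Myc-Tagged Dlx5 in thymocytes, and no library without the transgene was analysed. The labels describe both as primary tumor, with strain C57BL/6 for the ChIP and C57BL/7 for the input, whereas the methods name a single lymphoma cell line and an IgG control. Age is not given in the sources used here.

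The Myc-Tag library had 3477 called intervals and the input had 28. The height of a summit, the highest point of an interval, is a deposited whole number whose normalization is not stated, and the read depth is unknown. The median height was 16 and the upper quartile was 19, over a range from 9 to 301. In every autosome between 47.0% and 70.7% of the summits lay within 1 kb of a protein-coding gene end in the mm10 annotation, which was therefore used, although the processing notes list mm9. Of the lineage markers, 4 of 9 T-cell genes, 2 of 4 B-cell genes and 0 of 4 myeloid genes had an interval in the gene or within 10 kb, beside 20.1% of all autosomal protein-coding genes. Cd3d and Cd3g were counted through the same 2 intervals. Among the genes counted were Lck, whose promoter drives the transgene, and the B-cell genes Cd79a and Pax5. An interval near a gene does not measure its expression.

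To show the DNA at these starts, the promoters of the 5 tallest sites with a sequence in the RefSeq promoter table, and of Bcl6, are given. The promoter of Zbtb7b, where no interval was called, follows for comparison. Each runs 5′ to 3′ from 250 bases before the annotated start to 50 after it, in build GRCm38.p6. The summits of Zbtb49, Zbtb9 and Bcl6 lie 102, 69 and 84 bp after the start, beyond the end of the window. Capitals mark, on either strand, TAATT, the classic Dlx site, CCGGAAG, a core recognized by Ets factors, and CACGTG, the E-box of Myc.
Zbtb11 (chr16:55973554-55973853, + strand): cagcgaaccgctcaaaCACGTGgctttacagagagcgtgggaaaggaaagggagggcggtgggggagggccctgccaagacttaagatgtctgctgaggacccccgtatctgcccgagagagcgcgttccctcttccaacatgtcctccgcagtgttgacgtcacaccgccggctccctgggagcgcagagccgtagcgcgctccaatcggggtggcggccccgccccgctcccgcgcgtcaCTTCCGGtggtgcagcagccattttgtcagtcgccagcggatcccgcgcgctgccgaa
Zbtb17 (chr4:141444423-141444722, + strand): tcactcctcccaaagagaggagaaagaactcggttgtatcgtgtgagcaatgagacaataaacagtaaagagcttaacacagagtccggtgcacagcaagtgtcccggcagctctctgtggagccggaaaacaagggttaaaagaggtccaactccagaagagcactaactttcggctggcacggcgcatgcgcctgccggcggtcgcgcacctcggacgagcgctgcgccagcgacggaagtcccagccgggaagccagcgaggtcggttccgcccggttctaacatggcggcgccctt
Zbtb49 (chr5:38220405-38220704, - strand): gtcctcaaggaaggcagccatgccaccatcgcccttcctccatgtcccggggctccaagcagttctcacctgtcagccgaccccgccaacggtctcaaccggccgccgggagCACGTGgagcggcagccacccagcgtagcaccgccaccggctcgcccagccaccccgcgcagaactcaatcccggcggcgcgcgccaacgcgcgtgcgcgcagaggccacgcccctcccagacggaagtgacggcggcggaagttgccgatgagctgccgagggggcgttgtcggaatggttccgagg
Zbtb45 (chr7:13009803-13010102, - strand): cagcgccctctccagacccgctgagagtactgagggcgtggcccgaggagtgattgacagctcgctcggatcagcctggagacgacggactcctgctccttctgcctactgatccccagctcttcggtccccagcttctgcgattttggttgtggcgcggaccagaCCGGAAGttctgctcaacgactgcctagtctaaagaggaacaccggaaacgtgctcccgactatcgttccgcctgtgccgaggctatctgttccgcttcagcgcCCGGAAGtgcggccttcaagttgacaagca
Zbtb9 (chr17:26972929-26973228, + strand): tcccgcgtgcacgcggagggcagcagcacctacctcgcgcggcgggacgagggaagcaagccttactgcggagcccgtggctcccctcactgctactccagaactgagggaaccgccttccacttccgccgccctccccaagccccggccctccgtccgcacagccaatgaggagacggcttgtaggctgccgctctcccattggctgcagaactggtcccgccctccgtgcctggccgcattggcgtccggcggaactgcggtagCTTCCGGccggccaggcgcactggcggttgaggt
Bcl6 (chr16:23988803-23989102, - strand): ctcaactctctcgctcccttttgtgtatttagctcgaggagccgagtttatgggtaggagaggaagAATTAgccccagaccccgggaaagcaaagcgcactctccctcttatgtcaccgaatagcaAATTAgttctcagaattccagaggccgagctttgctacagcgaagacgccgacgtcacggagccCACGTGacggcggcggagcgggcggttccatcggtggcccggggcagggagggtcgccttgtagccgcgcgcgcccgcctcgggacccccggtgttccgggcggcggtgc
Zbtb7b (chr3:89393329-89393628, - strand): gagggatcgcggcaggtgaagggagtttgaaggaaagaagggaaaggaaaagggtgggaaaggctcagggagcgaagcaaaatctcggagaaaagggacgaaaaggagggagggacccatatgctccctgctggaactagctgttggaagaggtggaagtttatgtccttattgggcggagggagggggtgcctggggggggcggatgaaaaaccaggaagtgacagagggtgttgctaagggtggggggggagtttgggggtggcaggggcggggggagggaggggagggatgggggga

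Intervals were assigned to a gene if they reached its body, or came within 10 kb of it, with 1 bp or more. In this way 18 of the 42 genes (42.9%) had a Myc-Tag interval, and the background over all autosomal protein-coding genes was 20.1%. Without Zbtb8os the count was 18 of 41 (43.9%). The genes named Zfp and a number, a group by name that includes the BTB zinc finger gene Zfp131, stood at 77 of 388 (19.8%). The forkhead genes stood at 8 of 41 (19.5%). These shares come from 1 library and the differences were not tested. A total of 20 intervals served the 18 genes, since Zbtb6 and Zbtb26 lie next to each other and share 1 of them. The input had 0 calls at these 20 intervals. Across all genes 3.32% had 2 or more intervals, and among the Zbtb genes 2 did (4.76%), namely Zbtb18 and Zbtb26.

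**Figure D1:**
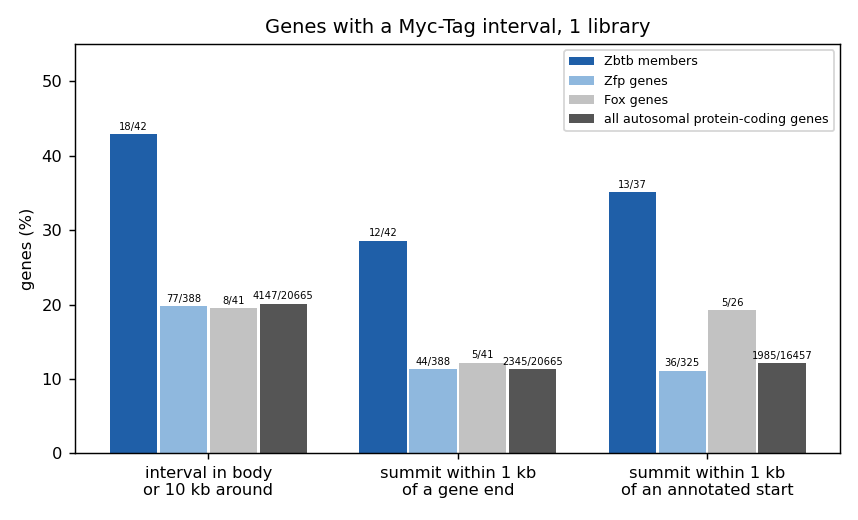
Percentage of genes with a Myc-Tag interval (y axis) under 3 definitions (x axis), for the Zbtb genes, the Zfp genes, the Fox genes and all autosomal protein-coding genes; each bar is 1 share from 1 library, with the count of genes above it. The Zbtb bar is the tallest of its group in each definition, from 28.6% to 42.9%.

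The heights of the 20 intervals ran from 10 to 26, with a median of 13.5 against 16 for all intervals. Intervals with a summit within 1 kb of a Zbtb start also had a median of 13.5. For all autosomal intervals within 1 kb of a coding start it was 15. Of the 20, 14 were lower than the overall median, none lay from 16 up to below 19, and 6 (30%) reached the upper quartile, compared with 28% of all intervals. Most intervals at Zbtb genes were thus low, and the distance from the background changed with the height cutoff. When only summits of at least 16 were kept, 6 of the 42 genes (14.3%) had an interval and the background was 11.2%. With summits of at least 19 the same 6 genes were counted and the background was 6.40%. The intervals were 458 to 1460 bp wide, and their median of 841.5 bp compares with 752 bp overall.

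**Figure D2:**
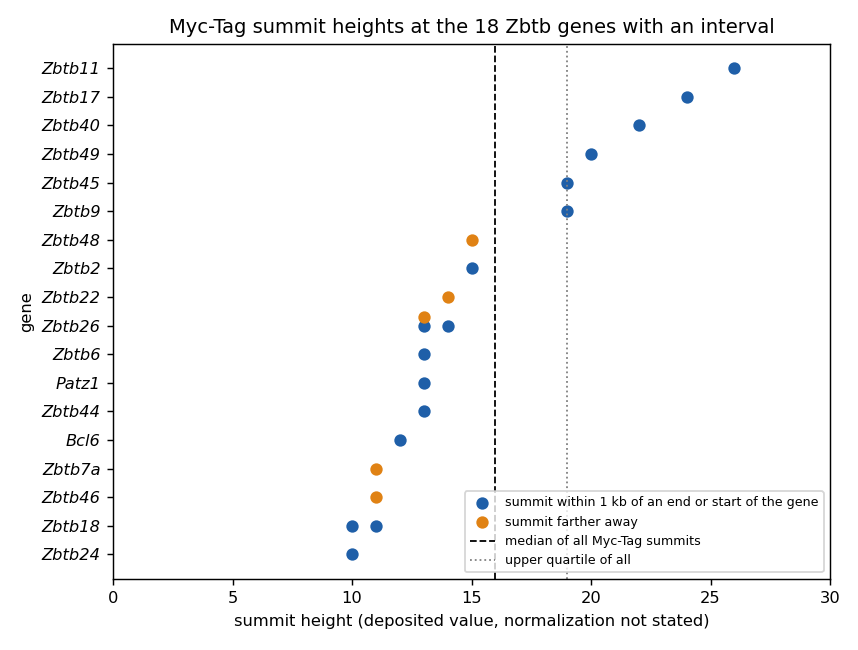
Summit height of every Myc-Tag interval counted at a Zbtb gene (x axis, deposited value; y axis, gene), with the overall median (16, dashed) and upper quartile (19, dotted). The plot shows 6 genes at or above 19 and the others at 15 or lower; the summit at 13 shared by Zbtb6 and Zbtb26 is drawn at both genes.

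The tallest summit belonged to Zbtb11. Its height was 26 in the interval chr16:55973400-55974633, and 245 of the 3477 summits (7.05%) were taller. The summit lay 76 bp before the Zbtb11 start, and the interval also overlapped the antisense long noncoding RNA gene Zbtb11os1. Zbtb17 encodes Miz1, the partner through which Myc represses genes and which is needed early in lymphocyte development. Its summit of 24 lay at the start itself, 1 bp before it, in chr4:141444327-141445060, an interval that also overlapped the protein-coding gene Gm42337. Summits mostly fell on multiples of 16 bp, so such distances are not exact to the base.

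Zbtb40 followed with a height of 22 (chr4:137048220-137049072), its summit inside the gene and 180 bp from the end with the higher coordinate. Zbtb49 had a height of 20 (chr5:38219763-38220765) and Zbtb45 one of 19 (chr7:13009386-13010249). The Zbtb49 summit was 102 bp after the start of that gene and 130 bp before the start of Lyar, a nucleolar factor gene that begins next to it in the opposite direction, so the interval cannot be assigned to either gene alone. The Zbtb45 summit was 12 bp after its start. Zbtb9, also at 19 (chr17:26972639-26973585), had its summit 69 bp after the start. Each of the 6 tallest sites thus lay within 200 bp of an annotated start or, at Zbtb40, of a gene end.

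Of the 42 genes, 37 had an entry in the RefSeq promoter table and Zbtb10, Zbtb16, Zbtb40, Zbtb48 and Zbtb7c did not. A summit lay within 1 kb of an annotated start in 13 of the 37 genes (35.1%), where the background over all genes with an entry was 12.1%. The Zfp genes had 36 of 325 (11.1%) and the Fox genes 5 of 26 (19.2%). Counted by gene ends of either kind, which needs no strand, 12 of 42 Zbtb genes (28.6%) had a summit within 1 kb, and the background was 11.3%. There were 14 such intervals at starts, because Zbtb18 had 2. Their summits were 1 to 975 bp from the start with a median of 196 bp, 6 before and 8 after it, and 7 lay within 150 bp. For all autosomal intervals within 1 kb of a coding start the median distance was 142 bp.

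**Figure D3:**
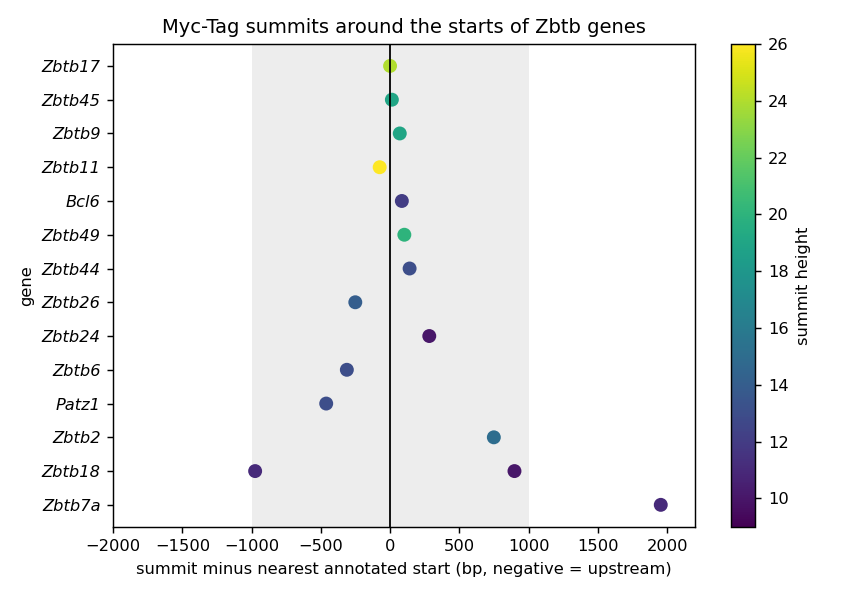
Position of each Myc-Tag summit relative to the nearest annotated start of the gene (x axis in bp, upstream negative; y axis, gene), coloured by summit height; the shaded band is 1 kb on either side. Summits at 13 genes lie inside the band, the 5 tallest of them within 150 bp of the start, and that of Zbtb7a lies 1953 bp downstream.

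Zbtb18 (RP58), a repressor known from neuronal development, had an interval on each side of its outermost start. The summits were 975 bp before it, with a height of 11, and 897 bp after it, with a height of 10, so neither lay on the start itself. Zbtb2, linked to the p53 pathway, had a summit of 15 at 748 bp after the start. At Patz1, a summit of 13 lay between the 2 annotated starts, 864 bp after the outer and 462 bp before the inner one. Zbtb24, which is mutated in a human immunodeficiency with centromeric instability, had one of 10 at 282 bp after the start, and Zbtb44 one of 13 at 140 bp.

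The zinc finger genes Zbtb6 and Zbtb26 lie in a row on chromosome 2. The interval chr2:37430601-37431391, with a height of 13, had its summit 313 bp before the Zbtb6 start and 936 bp beyond the lower end of Zbtb26. Another interval, chr2:37442806-37443717, had a height of 14. Its summit lay 252 bp before the Zbtb26 start and 139 bp after the start of Rabgap1, the gene on the other side. A further one, with a height of 13, was counted at Zbtb26 from a distance of 8844 bp and lay inside Rabgap1. Of the 3 intervals counted at Zbtb26, therefore, 1 was at its start and that one was shared with a neighbour.

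At Bcl6 the interval chr16:23988419-23989107 covered the outer of its 2 annotated starts. The height was 12, lower than 2829 of the 3477 summits (81.4%), and the summit lay 84 bp after that start. It also overlapped the long noncoding RNA gene Gm31527. Zbtb7a (LRF), known for opposing Notch in the choice between B and T lineages, had an interval with a height of 11 inside the gene. This summit was 1953 bp after the annotated start.

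At 3 genes the counted interval lay at a neighbouring gene. The interval of height 15 counted at Zbtb48, a telomere-binding factor, was 9702 bp from it and its summit lay 901 bp after the start of Klhl21. That of Zbtb22, with a height of 14, was 9808 bp away and its summit lay 206 bp before the start of Rgl2. At Zbtb46, a factor of classical dendritic cells, the summit of 11 lay at the adjacent starts of Arfrp1 and Zgpat, 25 bp before the former and 6 bp after the latter, and 5580 bp from Zbtb46. These 3 genes were counted through the 10 kb allowance and not through an interval at the gene, and without them 15 of 42 genes (35.7%) had an interval within 1 kb of the body. The background at 1 kb was 15% of all genes. The intervals counted at Zbtb48 and Zbtb22 reached just inside the 10 kb limit, with summits 9981 and 10363 bp away. Among the genes not counted, the nearest summits were those of Zbtb3 and Zbtb5, at 15307 and 17610 bp.

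No interval was called at the other 24 genes. Their nearest summit was 15.3 to 1781.1 kb away, and for 15 of the 24 it lay beyond 100 kb. Such distances were not computed for all genes, so whether they are unusual cannot be said. The largest distances were those of Zbtb16 (1781.1 kb), Zbtb14 (1600.0 kb), Zbtb41 (1145.9 kb) and Zbtb20 (1090.0 kb), the last a gene of 758704 bp. Neighbouring members were without an interval together, as Zbtb1 and Zbtb25, which overlap at their starts on chromosome 12 (381.7 and 408.5 kb), Zbtb34 and Zbtb43 on chromosome 2 (390.6 and 353.3 kb), and Zbtb8os, Zbtb8a and Zbtb8b on chromosome 4 (145.6, 136.4 and 67.5 kb). The remaining ones, in order of distance, were Zbtb7c at 743.9 kb, Zbtb10 at 323.9 kb, Zbtb42 at 293.8 kb, Zbtb39 at 288.1 kb, Zbtb7b at 174.8 kb, Zbtb4 at 94.5 kb, Zbtb21 at 79.2 kb, Zbtb32 at 47.2 kb, Zbtb37 at 36.0 kb, Zbtb12 at 34.4 kb and Zbtb38 at 27.6 kb. For these genes binding was not detectable at the calling threshold. Zbtb4 and Zbtb38 recognize methylated CpG, as does Zbtb33 (Kaiso) on chromosome X, which also had no interval.

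**Figure D4:**
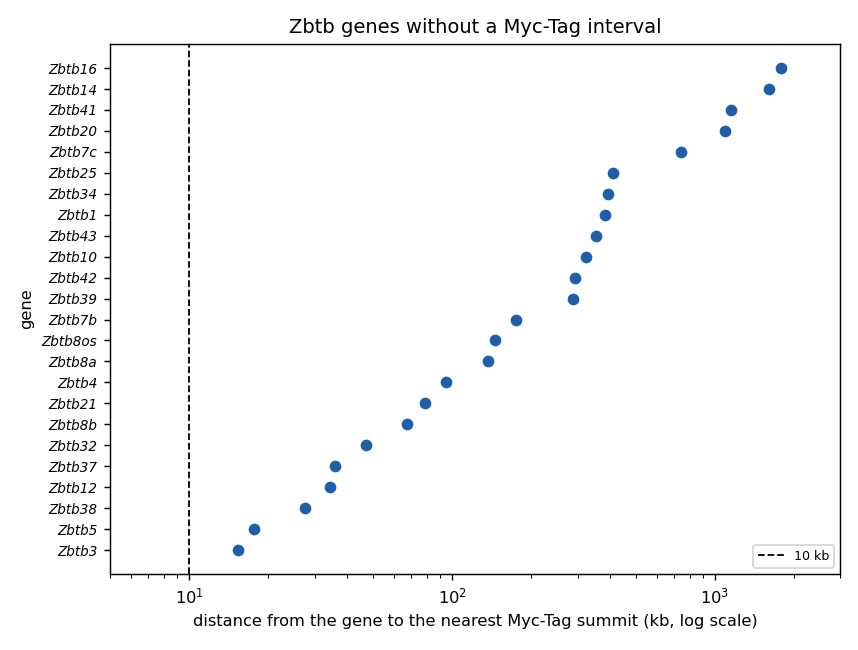
Distance from each of the 24 Zbtb genes without an interval (y axis) to its nearest Myc-Tag summit (x axis in kb, log scale); the dashed line is the 10 kb limit. The points run from 15.3 kb at Zbtb3 to 1781.1 kb at Zbtb16.

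Of 10 members with known roles in T cells, 4 had an interval. Across the family it was 18 of 42 (42.9%), against the background of 20.1% given above. The 4 were Zbtb17 (24), Patz1 (13), Bcl6 (12) and Zbtb7a (11), the heights in parentheses. The other 6 were Zbtb1, Zbtb7b, Zbtb16, Zbtb20, Zbtb25 and Zbtb32 (ROG, a repressor of Gata3). Patz1 had an interval whereas Zbtb7b, the gene it represses, had none within 174.8 kb, and no link between them was tested.

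Among 6 genes with BTB and zinc finger domains but outside the naming rule or on chromosome X, 1 had intervals, and on the autosomes it was 1 of 5, beside the background of 20.1%. Zfp131 had 2, with heights of 13 and 12, and Hic1, Hic2, Bcl6b, Gzf1 and Zbtb33 had none. Of 14 genes for BTB partners, 10 had an interval, and on the autosomes 8 of 11 did, beside the same 20.1%. They were the corepressor genes Bcor (15), Bcorl1 (17), Sin3a (12 and 12) and Tbl1xr1 (19), the scaffold gene Cul3 (13), and histone deacetylase genes. The latter were Hdac1 (10), Hdac2 (18 and 14), Hdac3 (17), Hdac4 (13 and 13) and Hdac7 (22 and 21). Ncor1, Hdac5, Gps2 and Tbl1x had none. A summit within 1 kb of a gene end was found for 3 of the 14, namely Hdac2, Tbl1xr1 and Cul3. All 3 were among the 11 on the autosomes, beside 11.3% of all autosomal protein-coding genes. The median length of the 14 genes was 61544.5 bp, against 17491 bp for all autosomal protein-coding genes, and its part in the count was not tested. The Zbtb genes with an interval had a median length of 18475.5 bp and those without one 21188 bp, whereas over all genes the medians were 21736 and 16515.5 bp. The median number of ends of other coding genes in the region searched was 1 for the Zbtb genes with an interval and 1 for those without.

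The promoters of the Zbtb genes were rich in CpG. In the window of the outermost start listed in the RefSeq promoter table, the 37 genes had a median of 25 CpG. The median over all 16457 genes with an entry was 14. The 13 genes with a summit within 1 kb of a start had a median of 30 CpG (range 14 to 51), and the other 24 had 22.5 (range 1 to 45), so that the ranges overlapped widely. Over all genes the medians were 24 with such a summit and 11 without. Among all genes with at least 25 CpG, 23.1% had a summit within 1 kb of a start, as did 8 of 19 Zbtb genes (42.1%). Below 25 CpG the shares were 8.26% of all genes and 5 of 18 Zbtb genes (27.8%). CpG content thus moved with the presence of a summit, and its part in the share of the Zbtb genes was not tested. The outermost listed promoters with the fewest CpG, those of Zbtb46 (1), Zbtb20 (3), Zbtb38 (8) and Zbtb7b (8), had no summit at a start. For Zbtb46 and Zbtb20 the only listed start lies inside the gene, away from its outer end. The further listed starts of Zbtb38, with 41 and 25 CpG, had no summit either.

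**Figure D5:**
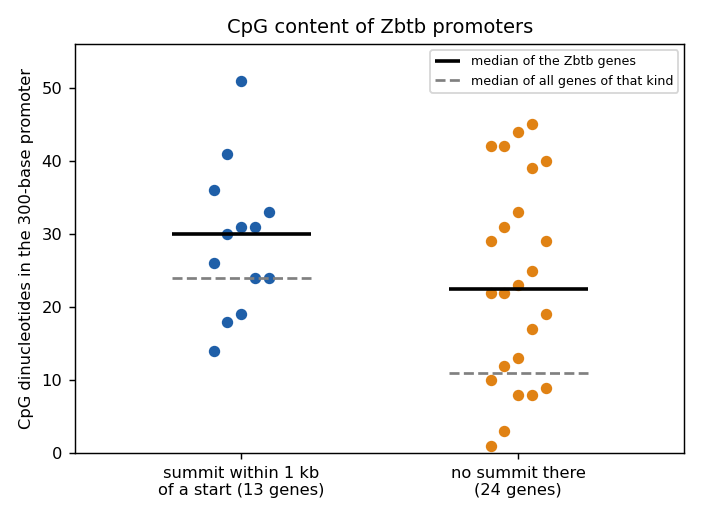
Number of CpG in the 300-base promoter at the outermost listed start (y axis) of Zbtb genes with and without a summit within 1 kb of a start (x axis). Points are genes, black lines the medians of the Zbtb genes (30 and 22.5) and grey lines the medians of all genes of that kind (24 and 11). The 2 sets of Zbtb genes overlap, and each Zbtb median lies above that of all genes.

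With respect to sequence, TAATT or its complement AATTA was found in the outermost promoter of 8 of the 37 genes (21.6%), and in 23.9% of all 16457 promoters. Only the promoter window was searched. Among the 13 genes with a summit at a start, only Zbtb11, Zbtb17 and Zbtb45 had a summit inside that window. The motif shares therefore describe the promoter windows and not the sequence under the summits. Of these 13 genes, 1 had TAATT or AATTA (7.69%), against 14.6% of all genes with a summit at a start. The gene was Bcl6, in the sequence printed above, where AATTA begins 184 and 124 bases before the start. CCGGAAG was present in 6 of the 13 (46.2%), compared with 24.3% of all genes with a summit at a start and 12.3% of all promoters. In the printed sequences it stands in Zbtb45 at 2 places, 84 bases before and 20 after the start, and in the reverse direction in Zbtb11, 8 bases before the start, and in Zbtb9, 16 after it. CACGTG occurred in 4 of the 13 (30.8%), against 10.5% of all genes with such a summit, namely Zbtb49, Zbtb11, Bcl6 and Zbtb24. Among the 24 Zbtb genes without such a summit, TAATT was in 7 (29.2%), CCGGAAG in 4 (16.7%) and CACGTG in 2 (8.33%). Over all genes without one the shares were 25.1%, 10.6% and 7.62%. GGGCGG, the GC box, was found in 11 of the 13 and in 69.2% of all genes with a summit at a start, and CCAAT in 4 of the 13 and in 38.7%. None of the 3 marked motifs was present in the Zbtb7b promoter. All motifs were searched on both strands, none of the 3 marked ones contains another, and a match is a run of letters and not evidence of binding.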

How the data were processed

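The deposited table holds, for the Myc-Tag and the input library, the called intervals and the summits, and a list of active regions that was not used here. Per the methods, Active Motif carried out ChIP-seq and analysis on an Illumina GA II, and MACS p-values served for the peak calls. The submitters' processing notes list BWA and mm9 without a version. The score the authors deposited with each summit is its height, a whole number of unstated normalization.

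Summits were matched to intervals by position. Interval starts were counted from 1. Genes came from the RefSeq table of GRCm38.p6 (mm10), and starts, strands and promoter sequences from the RefSeq promoter table, which had entries for 37 of the 42 genes and none on chromosome 18. Where a gene had several listed starts, distances refer to the nearest and motifs and CpG to the outermost of those listed. Every gene of the family is named. The results for 2 genes of the other lists are not reported here, and the lists are counted without them. The members, lists and motifs were chosen with earlier results of these data known, and the split at 25 CpG after the values were seen. With 1 library per group there was no test between conditions. The planned count of zinc finger patterns was not run, as protein sequences were not used here. Alternatives were thresholds on height, distances, overlap, the summit in place of the interval, and intervals called in the input. Calculations were made with pandas 2.3.3 and numpy 2.4.6 under Python 3.11.15 and plotted with matplotlib 3.10.9, and the assignment of intervals was tested on simulated data.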

Additional observations from a re-analysis of the deposited data

How the results depend on the processing

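The alternatives gave 38 values, of which 25 were a count or median within 1.5 times that reported, or a share inside its 95% Wilson interval, and 13 moved beyond that. Keeping summits at or above the median height left 6 Zbtb genes with an interval in the gene or within 10 kb, through 6 intervals. The share of all genes by this rule fell to 11.2%. At or above the upper quartile the counts were again 6 and 6, and the share was 6.4%. Near gene ends, at 1 kb or less, 5 Zbtb genes kept a summit under each cutoff. No matching share of all genes was computed for these 5. The share of all genes was 15% at 1 kb, 17.5% at 5 kb and 35.1% at 50 kb, and 50 kb gave 35 intervals at the Zbtb genes. Fewer or more calls follow from the construction of these alternatives. Leaving out chromosome 15, chosen after seeing the data, gave a share of 19.4%, and no Zbtb gene lies there. The 50 kb setting counted 24 of 42 Zbtb genes (57.1%). When only intervals nearest to an end of the gene itself were kept, also chosen after seeing the data, 13 genes had one. The share of all genes under this rule was not computed.

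No paired analysis was possible because there is a single library of each kind, so that leaving out replicates was not possible either. Read depth is unknown and limits every statement on a gene without an interval. Heights have no replicate check, and only 28 intervals were called in the input, so the lack of an input call at the Zbtb genes says little about sites of low height.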
